A study of Rattus norvegicus with 16 samples.

Results

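The livers of 4 rats that had been fasted to phase 3 of fasting and then re-fed for 2 days (P3r2) were compared with the livers of 4 rats that were fed throughout (fed). The comparison takes in 8 of the 16 arrays of the study and all 13215 genes that have a row of their own in the deposited table. All animals were male Sprague Dawley rats, and each array is the liver of 1 animal. The other 8 arrays, of 4 rats fasted to phase 2 (P2) and 4 fasted to phase 3 (P3), are given beside them as levels. They were not compared, but they enter the fit and its estimate of spread, and so bear on every standard error and adjusted p. Total RNA of whole frozen liver was run on the Affymetrix Rat Exon 1.0 ST array, which carries probes along the exons of each gene. The sources used here give neither the age of the animals nor the length of the fast nor the hour at which livers were taken. An effect of re-feeding and a different hour of sampling therefore cannot be told apart for any gene below.

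Phase 2 of a long fast is the stage in which stored fat covers most of the energy needed and body protein is spared, and phase 3 is the late stage in which protein breakdown rises. On re-feeding, insulin rises, the liver stops making glucose for export, refills its glycogen and turns carbohydrate into fatty acids. Some enzymes of fat synthesis are known to pass their ordinary fed level for days when carbohydrate returns after a fast. The comparison asks in which genes the liver of a re-fed animal is not that of a fed one. Because whole liver was used, fewer cells of a type and less RNA per cell cannot be told apart.

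The arrays of the 8 livers were alike in level and less so in spread. Their median log2 signal lay between 4.36 and 4.4, and they correlated at 0.978 to 0.989 within the fed group, at 0.986 to 0.992 within the P3r2 group and at 0.971 to 0.985 across the groups. The upper quartile lay on average 1.85 log2 units above the median in fed and 2.03 in P3r2, and it was closest to the median in the second fed array (fed 2, 1.56). Values below are log2 signals, differences are P3r2 minus fed in log2 units ± the standard error of the fit, and "called" stands for an adjusted p below 0.05 from limma, with Benjamini-Hochberg adjustment over 18885 rows. Nothing in the labels says more of the 4 animals of a group than that they were separate. The p-values rest on the spread between animals pooled over the fed, P2, P3 and P3r2 groups, not on the 8 compared livers alone. Where P3 was scattered the standard error is wide: Cat had an SD of 0.13 in fed, 0.04 in P3r2 and 1.4 at P3, and a standard error of 0.46.

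Of the 13215 genes, 467 were called (3.53%). In P3r2, 381 genes were higher than in fed (2.88% of all) and 86 were lower (0.651%), and among them 96 were higher by at least 2-fold (0.726%) and 56 lower by at least 2-fold (0.424%). The called rises were mostly small, with a median of 0.78, and the called falls were larger, with a median of -1.24. The values of the 4 re-fed animals lay entirely above or below those of the 4 fed animals in 2029 genes (15.4%), of which 1667 lay above (12.6%) and 362 below (2.74%). An unadjusted p below 0.05 was reached by 2317 genes (17.5%). The counts per list below stand beside the shares of all genes called, 2.88% higher and 0.651% lower.

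The number of rises depended on how the arrays were scaled. After quantile normalization 190 genes were higher and 162 lower (55 and 72 by at least 2-fold), and with array spread as a covariate 237 were higher and 244 lower (58 and 81 by at least 2-fold). With these settings the share of rises among the calls was 54.0% and 49.3% against 81.6% with the values as deposited. Without fed 2, 195 genes were higher and 94 lower, and without P3r2 1, 2, 3 or 4 there were 170, 185, 157 and 219 higher and 50, 54, 56 and 51 lower. Calls in both directions lay mostly among the bright genes: among the 3304 dimmest genes 7 were higher and 3 lower, and among the 3304 brightest 210 were higher and 47 lower. The median difference of these brightest genes was 0.22. The part of the wider spread of the P3r2 arrays in these small rises was not tested. Of the called genes, 141 higher and 45 lower ones were called in all 8 fits that left out 1 of these arrays, and of these 105 and 45 were also called after quantile normalization and with the covariate. Of the 467 called genes, 0 changed sign in any of the 20 alternatives that measured them.

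**Figure D1:**
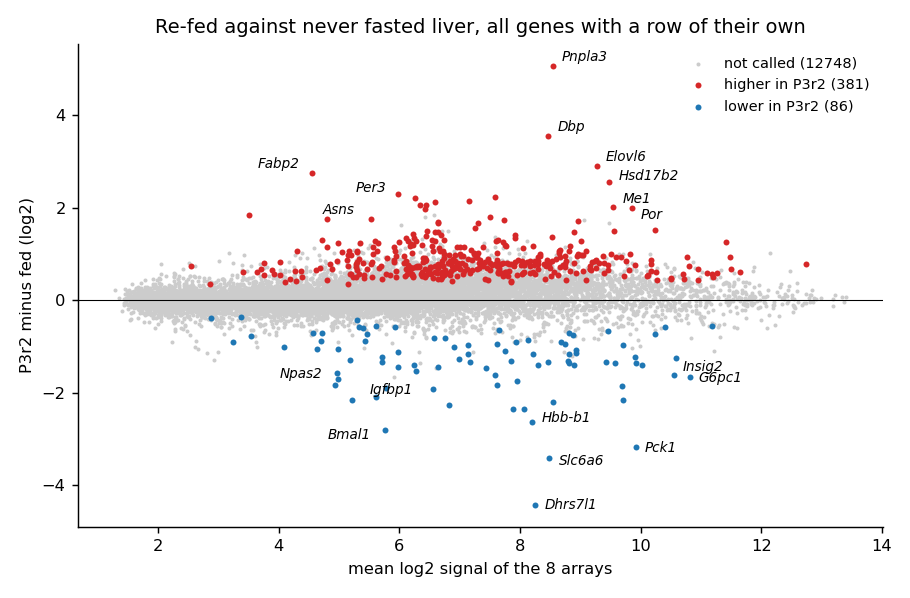
Difference between P3r2 and fed (vertical axis, log2 units) against the mean log2 signal of the 8 arrays (horizontal axis) for the 13215 genes, with the 381 genes called higher in red, the 86 called lower in blue and the rest in grey. Pnpla3 and Dbp lie highest and Dhrs7l1 and Slc6a6 lowest.

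**Figure D2:**
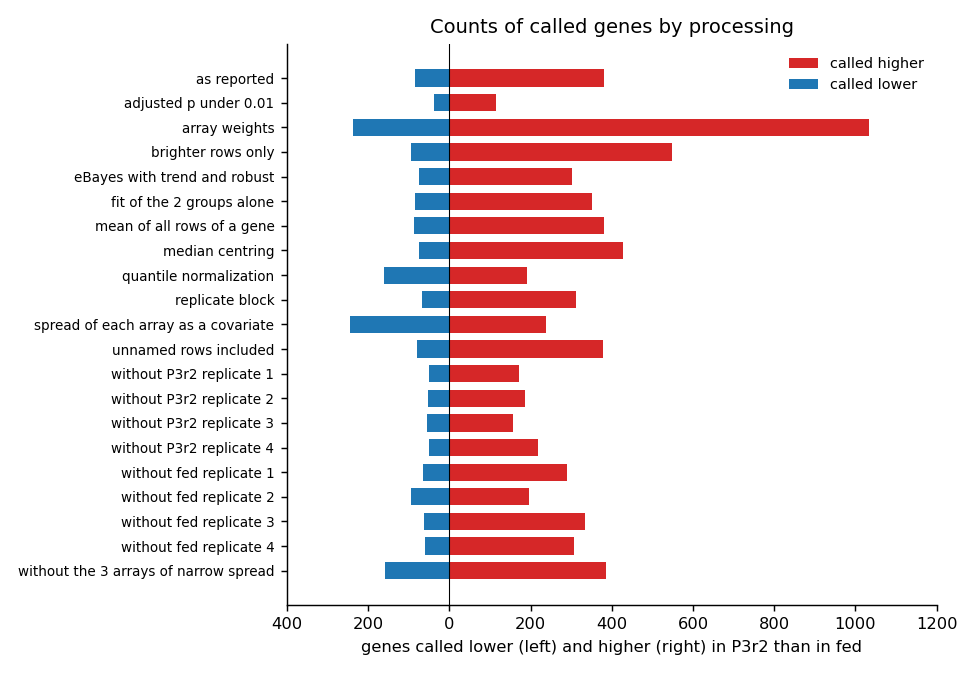
Number of genes called higher (red, to the right) and lower (blue, to the left) in P3r2 than in fed, with the values as deposited and under each of the 20 alternatives. Quantile normalization and the covariate for array spread give nearly equal numbers on both sides (190 and 162, 237 and 244), against 381 and 86 with the values as deposited.

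Genes of fatty acid synthesis stood above the fed level after re-feeding. Pnpla3, a lipid droplet protein of the liver whose gene is switched on by insulin and carbohydrate, had the largest rise of all genes, 5.07 ± 0.59 or 33.6-fold (adjusted p = 0.00037). Its signal was 11.66, 11.56, 10.76 and 10.33 in the 4 re-fed livers and 4.88, 8.48, 5.99 and 4.69 in the 4 fed livers, so that fed 2 stood far above the other fed animals and still well below every re-fed one. Without fed 2 the difference was 5.89. In both fasted groups the mean was lower, 4.15 at P2 and 4.10 at P3. Elovl6, the elongase that turns palmitate into stearate, rose by 2.91 ± 0.28, 7.53-fold (adjusted p = 5.8e-05). It measured 11.39, 10.30, 10.64 and 10.60 in P3r2 and 7.54, 8.70, 7.72 and 7.32 in fed, with no overlap, and its P3 mean was 3.39. Me1, the cytosolic malic enzyme that supplies NADPH for fat synthesis, rose by 2.01 ± 0.38 (adjusted p = 0.010) and measured 10.82, 10.80, 9.85 and 10.73 against 8.51, 9.21, 8.88 and 7.54. The lowest re-fed animal lay above the highest fed one for this gene too.

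The rest of the pathway moved less. Acacb, the acetyl-CoA carboxylase of the mitochondrial surface (1.09 ± 0.21, adjusted p = 0.010), and Thrsp, the thyroid hormone responsive spot 14 protein (0.79 ± 0.14, adjusted p = 0.0054), were called, with Thrsp between 13.05 and 13.27 in P3r2 and between 12.06 and 12.59 in fed. Acly, the ATP citrate lyase that makes cytosolic acetyl-CoA (1.25 ± 0.27, adjusted p = 0.024), Mid1ip1, which helps acetyl-CoA carboxylase to polymerize (0.97 ± 0.22, adjusted p = 0.026), and Dgat1, which makes triglyceride (0.79 ± 0.19, adjusted p = 0.038), were also called. These 3 calls were lost in 6, 4 and 5 of the 8 fits that left out 1 array. Adjusted p reached 0.082 and 0.10 without P3r2 1 for Acly and Dgat1 and 0.098 without P3r2 3 for Mid1ip1. In the fit of the 2 groups alone Acly was called (adjusted p = 0.039) and Mid1ip1 and Dgat1 were not (0.05 and 0.097). In all, 8 of 24 measured lipogenesis genes rose and 1 fell, against 2.88% and 0.651% of all genes. Their median was 0.64 against 0.04 over all genes and 0.22 among the 3304 brightest genes. After quantile normalization 5 rose, and 5 to 9 with single arrays left out.

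Other members of the pathway were not called. Acaca, the other acetyl-CoA carboxylase, differed by 0.79 ± 0.27 (adjusted p = 0.16, and 0.079 in the fit of the 2 groups alone). Elovl5, another elongase, was lower in every re-fed animal than in any fed one, but was not called (-0.55 ± 0.23, adjusted p = 0.28). Scd, the desaturase that makes oleate, measured 12.84, 12.85, 12.79 and 12.67 in P3r2 and 12.33, 12.31, 12.36 and 11.65 in fed, against a mean of 4.67 at P2 and 5.57 at P3. The groups did not overlap, but the difference of 0.63 ± 0.42 was not called (adjusted p = 0.60), and it was not called in a fit of the 2 groups alone (adjusted p = 0.083). Srebf1, the transcription factor that drives the pathway under insulin, was level (0.00 ± 0.21, adjusted p = 1.0), with a mean of 10.38 in both groups, and Pklr, the liver pyruvate kinase, differed by 0.39 ± 0.33 (adjusted p = 0.71). The desaturases Fads1 (0.65 ± 0.34) and Fads2 (1.03 ± 0.37) were not called in the fit over all 16 arrays (adjusted p = 0.41 and 0.18) and were called in the fit of the 2 groups alone (0.026 and 0.013). The single called fall of the list was Insig2. This gene's product holds the precursors of the SREBP factors in the endoplasmic reticulum, and Insig2 is known as a gene that insulin represses. It measured 9.48, 9.75, 9.95 and 9.78 in P3r2 and 11.59, 10.88, 11.63 and 11.36 in fed, a change of -1.63 ± 0.20 (adjusted p = 0.00063), with means of 10.82 at P2 and 11.11 at P3. Fasn, the fatty acid synthase, was not analysed here.

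**Figure D3:**
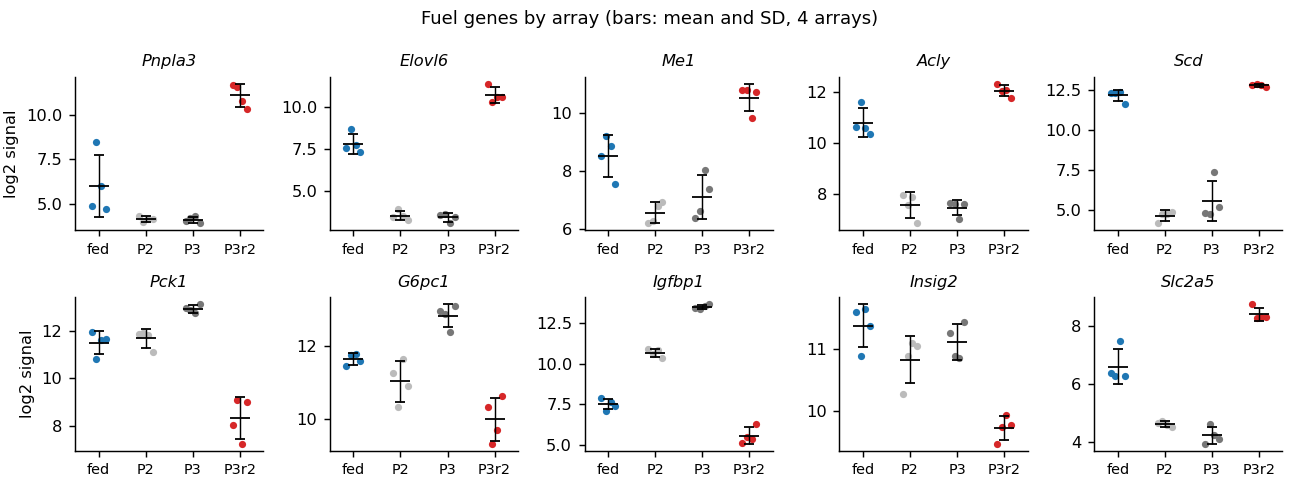
Log2 signal (vertical axes, each gene on its own scale) of 10 genes of fat, sugar and glucose metabolism in each of the 16 livers, by group, with the mean and SD of 4 arrays as bars. Pnpla3, Elovl6 and Me1 lie above the fed level in P3r2, and Pck1, G6pc1, Igfbp1 and Insig2 lie below it.

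The promoter of Pnpla3 is shown because the gene had the largest rise. The window covers 250 bases before to 50 bases after the start of the gene (RefSeq, assembly GRCr8, chr7:117173278-117173577, plus strand), and the capitals mark CCAAT, which occurs here on the opposite strand as ATTGG and is the motif bound by NF-Y.

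Pnpla3: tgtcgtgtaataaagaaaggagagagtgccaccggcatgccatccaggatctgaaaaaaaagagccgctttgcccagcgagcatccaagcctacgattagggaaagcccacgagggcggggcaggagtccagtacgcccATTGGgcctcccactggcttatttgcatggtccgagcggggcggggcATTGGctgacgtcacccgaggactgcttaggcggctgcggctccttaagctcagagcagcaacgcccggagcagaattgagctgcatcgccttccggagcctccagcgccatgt

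The window holds 2 copies of CCAAT. On either strand CCAAT occurred in 37.7% of all 27457 RefSeq windows of the same length, in 43.3% of the 326 windows of genes called higher and in 54.1% of the 74 windows of genes called lower. A match is a description of the letters only.

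In the list of glycolysis and fructose use 3 of 15 measured genes were called, all higher, against 2.88% of all genes. The median was 0.15, and 2 were called after quantile normalization and 1 with the covariate. Slc2a5, the fructose transporter GLUT5, rose by 1.80 ± 0.23 (adjusted p = 0.00067), from a fed mean of 6.61 to 8.41, with 4.63 at P2 and 4.24 at P3. Gpi, glucose-6-phosphate isomerase, was higher by 0.87 ± 0.19 (adjusted p = 0.021) and Pfkfb1, which sets the level of fructose-2,6-bisphosphate in liver, by 1.01 ± 0.23 (adjusted p = 0.031). Their calls were lost in 6 and 7 of the 8 fits that left out 1 array (up to 0.067 without P3r2 1 and 0.097 without fed 2). Slc2a2, the glucose transporter GLUT2 (0.60 ± 0.23, adjusted p = 0.21), and Khk, the ketohexokinase that begins the use of fructose (0.35 ± 0.34, adjusted p = 0.79), were not called. Tkt, the transketolase of the pentose phosphate pathway, rose by 0.77 ± 0.16 (adjusted p = 0.016, and 0.064 without P3r2 1). Gys2, the liver glycogen synthase (0.93 ± 0.21, adjusted p = 0.024), and Gyg1, glycogenin, which primes glycogen synthesis (1.06 ± 0.22, adjusted p = 0.017), were the called members of the glycogen list (2 of 9). Their calls were lost in 6 and 4 of the 8 fits that left out 1 array, with adjusted p up to 0.081 without fed 2 for Gys2 and 0.066 without P3r2 1 for Gyg1.

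In cholesterol synthesis 4 of 16 measured genes rose, against 2.88% of all genes, and none fell (0 of 16), with a median of 0.56. Acat2, the cytosolic thiolase that begins the pathway, rose by 1.72 ± 0.28 (adjusted p = 0.0037), and Mvd, mevalonate diphosphate decarboxylase, rose by 1.28 ± 0.16 (adjusted p = 0.00064). Mvd had a mean of 6.96 in fed, 5.76 at P3 and 8.24 in P3r2. Aacs, the acetoacetyl-CoA synthetase that feeds ketone bodies into lipid synthesis, rose by 1.67 ± 0.16 (adjusted p = 5.8e-05), with 7.89, 7.45, 7.46 and 7.11 in P3r2 and 5.71 to 6.0 in fed. Hsd17b7 (1.19 ± 0.28) and Lss (0.84 ± 0.21), later enzymes of the pathway, were called at adjusted p = 0.033 and 0.041 and lost the call in 6 and 7 of the 8 fits (up to 0.11 without P3r2 3 and 0.13 without P3r2 1). After quantile normalization 2 of the 16 genes were called.

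Pck1, G6pc1 and Igfbp1, known as genes that insulin represses, stood below the fed level. Pck1, the cytosolic phosphoenolpyruvate carboxykinase that commits carbon to glucose synthesis, was at 8.01, 9.09, 7.23 and 9.0 in P3r2 and at 11.95, 10.80, 11.64 and 11.65 in fed. That is a difference of -3.18 ± 0.35, 9.07-fold lower (adjusted p = 0.00024), where P3 had a mean of 12.93. G6pc1, the catalytic subunit of glucose-6-phosphatase, which releases glucose, was at 10.32, 9.30, 9.68 and 10.62 against 11.44, 11.76, 11.79 and 11.60 (-1.67 ± 0.29, adjusted p = 0.0057). For both enzymes every re-fed animal lay below every fed one. Igfbp1, which binds the insulin-like growth factors in blood, was at 5.16, 5.49, 5.39 and 6.31 against 7.89, 7.12, 7.66 and 7.43 (-1.93 ± 0.22, adjusted p = 0.00031), where its P3 mean was 13.50. The re-fed animals lay below the fed ones in 4 of 4 cases, although the gene had been far above the fed level at P3.

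The gluconeogenesis list as a whole had a median of 0.08. In it 3 of 21 measured genes fell, Pck1, G6pc1 and Gk, the glycerol kinase (-1.35 ± 0.21, adjusted p = 0.0029), and all 3 stayed called in every fit that left out 1 of the 8 arrays. The 3 members that rose were Mdh2 (0.57 ± 0.08, adjusted p = 0.0023) and Mdh1 (0.50 ± 0.10, adjusted p = 0.016), the malate dehydrogenases, and Pck2, the mitochondrial carboxykinase (0.53 ± 0.12, adjusted p = 0.025). Mdh1 and Pck2 lost the call in 1 and 6 of the 8 fits (up to 0.054 and 0.078 without P3r2 4). Ppargc1a, a coactivator that fasting induces, was at 5.73, 5.96, 5.89 and 5.57 in P3r2 and at 4.94, 4.42, 4.34 and 5.08 in fed, a difference of 1.09 ± 0.29 that was not called over the 16 arrays (adjusted p = 0.055) and was called in the fit of the 2 groups alone (0.019). Its P3 mean was 9.80. Fbp1, fructose-1,6-bisphosphatase, differed by 0.08 (adjusted p = 0.87) and Foxo1, the factor through which insulin represses Pck1, G6pc1 and Igfbp1, by 0.04 (adjusted p = 0.98).

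Among the genes of fatty acid oxidation and PPARalpha, 1 of 30 was called, and it was lower: Pdk4, the kinase that shuts pyruvate dehydrogenase in fasting. It measured 7.78, 7.53, 7.99 and 7.24 in P3r2 and 8.69, 8.75, 8.84 and 8.93 in fed (-1.16 ± 0.27, adjusted p = 0.029), and the call was lost in 7 of the 8 fits that left out 1 array (up to 0.087 without P3r2 4). Cpt1a, the entry enzyme of mitochondrial oxidation (0.58 ± 0.30, adjusted p = 0.40), and Fgf21, a fasting hormone of the liver (0.79 ± 0.43, adjusted p = 0.45), were not called, and their groups overlapped. Ppard, the nuclear receptor PPARdelta, was among the most uniform falls of the comparison, with 6.64, 6.55, 6.65 and 6.77 in P3r2 against 7.43, 7.67, 7.72 and 7.68 in fed (-0.97 ± 0.10, adjusted p = 0.00016). It was the single called gene of the 36 nuclear receptors and liver transcription factors measured. Its means at P2 and P3, 6.90 and 6.93, were also under the fed mean of 7.62.

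The clock genes differed in 11 of 20 measured members, 9 higher and 2 lower, against 3.53% of all genes. In the clock of mammalian cells, BMAL1 pairs with CLOCK or NPAS2 to switch on the Per genes, Dbp and others, whose products in turn shut off that pair, so that Bmal1 and its targets peak at opposite hours. Bmal1 was at 4.17, 3.66, 5.01 and 4.61 in P3r2 and at 7.26, 6.46, 7.29 and 7.66 in fed (-2.80 ± 0.36, adjusted p = 0.00065). Npas2 was at 4.14, 4.08, 4.21 and 4.25 against 5.80, 5.58, 5.62 and 6.05 (-1.59 ± 0.12, adjusted p = 7.2e-06). For both, the groups lay far apart, and the P3 mean was near the fed one for Bmal1 (7.39) and near the re-fed one for Npas2 (4.14).

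Of the known targets of that pair, Dbp and the Per genes were called higher, and Nr1d1, Cry1 and Cry2 were not called. Dbp, a transcription factor of the output of the clock, was at 10.62, 10.73, 10.07 and 9.59 in P3r2 and at 6.66, 6.67, 6.71 and 6.74 in fed, a rise of 3.56 ± 0.28 or 11.8-fold (adjusted p = 7.2e-06). Per3 rose by 2.29 ± 0.24 (adjusted p = 0.00014), Per2 by 1.69 ± 0.31 (adjusted p = 0.0080) and Tef, a relative of Dbp, by 1.67 ± 0.19 (adjusted p = 0.00032). Per2 was at 5.79 in fed, 5.71 at P2 and 5.98 at P3, and at 7.48 in P3r2, so that the other 3 groups had like means, whereas Tef was already at 7.86 at P3. Usp2, a deubiquitinase with a strong daily rhythm in liver (2.23 ± 0.34, adjusted p = 0.0025), Noct, the deadenylase nocturnin (1.97 ± 0.34, adjusted p = 0.0053), and Bhlhe40, a repressor of the clock (1.5 ± 0.28, adjusted p = 0.0097), also rose. Per1 (0.95 ± 0.21, adjusted p = 0.022) and Wee1, a cell cycle kinase under clock control (1.43 ± 0.34, adjusted p = 0.035), were called and each lost the call in 6 of the 8 fits (up to 0.078 without P3r2 2 and 0.11 without fed 2).

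The members not called were Clock (-0.62, adjusted p = 0.33), Nr1d1 (0.62, adjusted p = 0.76), Cry1 (0.36, adjusted p = 0.75), Cry2 (0.34, adjusted p = 0.76), Nfil3 (-0.81, adjusted p = 0.22), Rora (-0.31, adjusted p = 0.65), Bhlhe41, Csnk1d and Csnk1e. Nr1d1, the repressor REV-ERBalpha, was spread widely in the fed group, with 8.79, 8.34, 6.32 and 5.52, and from 6.71 to 8.51 in P3r2. The clock counts held under scaling, with 9 higher and 2 lower after quantile normalization and 8 and 3 with the covariate. Since the hour of sampling of either group is not given, an effect of re-feeding and a different hour cannot be told apart here. The same holds for the genes of the other lists.

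**Figure D4:**
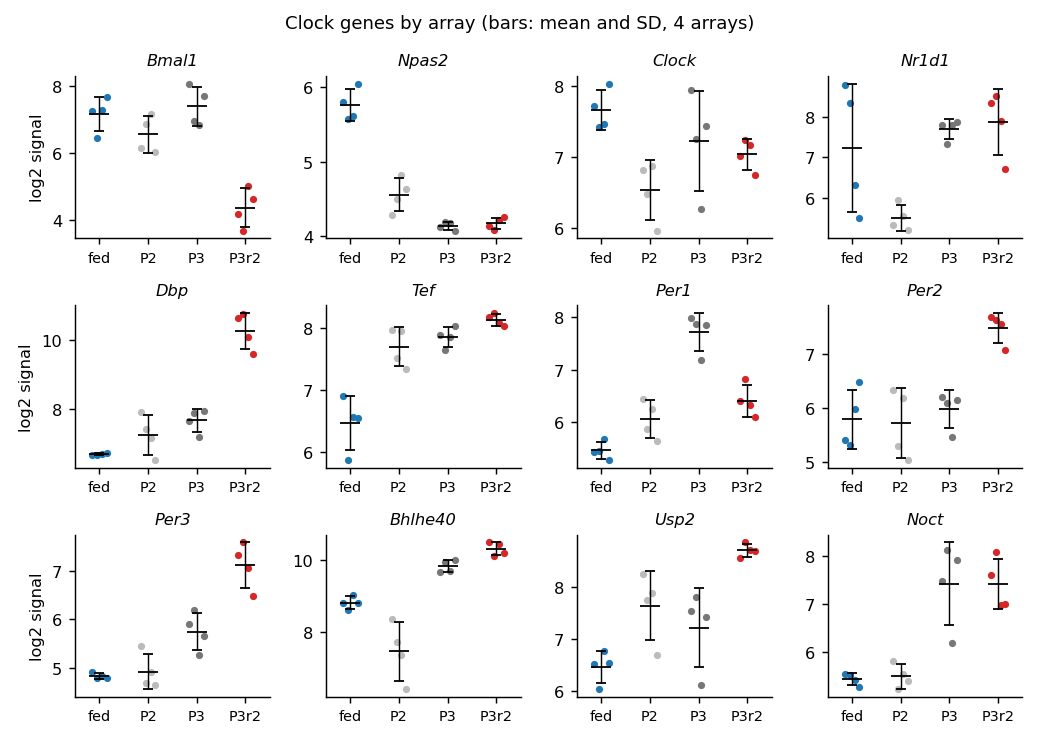
Log2 signal (vertical axes, each gene on its own scale) of 12 clock genes in each of the 16 livers, by group, with the mean and SD of 4 arrays as bars. In P3r2 Bmal1 lies below the other 3 groups and Dbp, Per2 and Per3 above them.

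The promoter windows of Tef, Bhlhe40 and Dbp are shown. The BMAL1 pair is known to bind CACGTG, the E-box. Of the 9 clock genes called higher 8 have a promoter window, and 2 of these windows, those of Tef and Bhlhe40, hold an E-box. Dbp had the largest rise of the clock list, and its window has no E-box. That of Per3, not shown, has none either. The windows shown are chr7:115206577-115206876, chr4:143174200-143174499 and chr1:105312006-105312305, all on the plus strand of GRCr8. Capitals mark CACGTG, which reads the same on both strands, and CCAAT or its reverse complement ATTGG.

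Tef: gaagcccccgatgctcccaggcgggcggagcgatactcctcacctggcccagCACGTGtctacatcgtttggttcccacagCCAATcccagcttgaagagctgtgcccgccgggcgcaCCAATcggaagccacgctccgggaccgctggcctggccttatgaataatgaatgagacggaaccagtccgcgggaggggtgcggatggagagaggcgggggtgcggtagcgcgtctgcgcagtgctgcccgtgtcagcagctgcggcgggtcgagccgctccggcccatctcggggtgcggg
Bhlhe40: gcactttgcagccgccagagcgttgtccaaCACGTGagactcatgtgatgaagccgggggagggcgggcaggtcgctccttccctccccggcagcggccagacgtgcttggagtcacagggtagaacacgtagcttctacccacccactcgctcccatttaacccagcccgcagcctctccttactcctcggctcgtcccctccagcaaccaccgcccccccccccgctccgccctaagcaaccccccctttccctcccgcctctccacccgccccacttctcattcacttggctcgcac
Dbp: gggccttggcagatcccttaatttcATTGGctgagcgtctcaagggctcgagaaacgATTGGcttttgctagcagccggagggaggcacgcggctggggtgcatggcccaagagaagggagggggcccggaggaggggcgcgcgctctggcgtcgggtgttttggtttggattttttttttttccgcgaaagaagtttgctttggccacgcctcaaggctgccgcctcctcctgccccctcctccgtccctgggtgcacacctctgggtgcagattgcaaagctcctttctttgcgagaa

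The windows of Tef and Bhlhe40 hold 1 E-box each, at position -198 and -220 from the start of the gene, and that of Dbp holds 2 copies of CCAAT and no E-box (0). The E-box occurred in 2 of the 8 windows of called clock genes that were higher, in 38 of the 326 windows of all genes called higher (11.7%), in 4 of the 74 windows of genes called lower (5.41%), in 8.09% of the 10799 windows of genes with a row of their own and in 6.65% of all windows. The third motif searched, TTTGAA, occurred in 12.3% and 10.8% of the windows of genes called higher and lower, in 1622 of the 10799 of genes with a row of their own and in 18.1% of all windows. That a motif is not in this window says only that these letters are not there.

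Transporters of the hepatocyte surface made up several of the largest falls. Slc6a6, which takes up taurine, the amino acid used to conjugate bile acids, was at 6.89, 7.37, 6.89 and 5.96 in P3r2 and at 9.93, 10.19, 10.33 and 10.33 in fed (-3.41 ± 0.32, 10.7-fold lower, adjusted p = 5.8e-05). Its means at P2 and P3 were 6.89 and 8.89, so the re-fed livers were at the level of P2. Slc22a8, an organic anion transporter (-2.17 ± 0.34, adjusted p = 0.0031), Slc34a2, a phosphate transporter (-2.36 ± 0.46, adjusted p = 0.011), and Slc13a4, a sulphate transporter (-1.41 ± 0.18, adjusted p = 0.00063), were still under the fed level. Their means in P3r2 of 8.62, 6.89 and 7.60 lay between those of P3, which were 4.58, 4.61 and 4.77, and those of fed, 10.80, 9.25 and 9.01.

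Of the 18 hepatic drug and anion transporters measured, these 3 fell and 3 rose. Abcg2, an export pump for drugs and urate, rose by 1.28 ± 0.26 (adjusted p = 0.014), with means of 5.64 in fed, 4.20 at P3 and 6.92 in P3r2. Abcc4 (0.74 ± 0.17, adjusted p = 0.025) and Abcb1a (0.91 ± 0.23, adjusted p = 0.049), also export pumps, lost the call in 4 and 7 of the 8 fits (up to 0.087 without P3r2 2 and 0.16 without fed 2). In the list of bile acid synthesis and transport 2 of 16 fell, Abcg8, a subunit of the sterol export pump (-1.83 ± 0.42, adjusted p = 0.030), and Abcb4, the phospholipid export pump (-0.85 ± 0.21, adjusted p = 0.041). Both lost the call in 7 of the 8 fits (up to 0.085 and 0.11 without P3r2 1), while Cyp7a1, which controls the rate of bile acid synthesis, differed by -0.10 ± 0.40 (adjusted p = 0.97).

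Enzymes of oxidation and reduction were found at both ends. The largest fall of all was Dhrs7l1, of the short-chain dehydrogenase family, at 6.31, 7.74, 3.67 and 6.44 in P3r2 and 10.32, 10.10, 11.06 and 10.40 in fed (-4.43 ± 0.68, 21.6-fold lower, adjusted p = 0.0028). With 1 of the 8 arrays left out the difference ran from -5.0 to -3.64, and it was -3.64 without P3r2 3. The mean of Dhrs7l1 at P3 was 3.29, close to the third re-fed animal and far below the other 3. Hao2, a peroxisomal hydroxy acid oxidase that makes hydrogen peroxide, was also between P3 and fed, at a mean of 9.96 against 7.02 and 11.21 (-1.25 ± 0.23, adjusted p = 0.0087). Of 17 measured oxidases that make hydrogen peroxide 1 was called lower, Hao2, and 2 higher, against 0.651% and 2.88% of all genes. Hsd17b2, which inactivates oestradiol and testosterone, was at 10.93, 11.17, 10.66 and 10.27 in P3r2 and at 8.37, 7.99, 8.15 and 8.31 in fed, a rise of 2.55 ± 0.20 (adjusted p = 7.2e-06) beyond the fed level after a P3 mean of 4.13. Akr1c1, an aldo-keto reductase, was lower (-1.84 ± 0.42, adjusted p = 0.031), and the call was lost in 6 of the 8 fits (up to 0.088 without P3r2 3).

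Por, the reductase that feeds electrons to all microsomal cytochromes P450, was 4.00-fold higher, at 10.71, 10.95, 10.78 and 10.96 in P3r2 against 8.80, 8.61, 9.16 and 8.84 in fed (2.00 ± 0.29, adjusted p = 0.0018). That lay between the fed level and P3, where its mean was 12.25. Cyp1a1, a monooxygenase induced by aromatic compounds, rose by 1.75 ± 0.28 (adjusted p = 0.0034) and Cyp2j4, an arachidonate epoxygenase, by 1.07 ± 0.21 (adjusted p = 0.012). These were the called ones among 29 genes of the P450 list, whose median was 0.03. Cyp2c11, the male-specific P450, was near the fed level and not called (-0.11 ± 0.50, adjusted p = 0.97). Its mean was 12.14 in P3r2, 12.25 in fed and 5.95 at P3.

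Antioxidant enzymes, which bear on the oxidative stress that the series is about, lay mostly above the fed level, by small amounts. Of 36 measured, 31 were above 0 and the median was 0.37 (0.19 after quantile normalization). Over all genes the median was 0.04, and among the 3304 brightest genes it was 0.22. In 13 of them the re-fed animals lay entirely above the fed ones, against 12.6% of all genes, and 16 had an unadjusted p below 0.05, against 17.5%. After adjustment 3 were called, all higher, against 2.88% of all genes. They were Gss, glutathione synthetase (1.28 ± 0.29, adjusted p = 0.029), Prdx3, the mitochondrial peroxiredoxin (0.68 ± 0.17, adjusted p = 0.047), and Msrb2, a mitochondrial methionine sulphoxide reductase (0.59 ± 0.14, adjusted p = 0.041). Each lost the call in 7 of the 8 fits that left out 1 array, and without fed 2 none of the 36 was called by limma (0). Without fed 2, P2 4 and P3 3 together 4 were called, and the median was 0.2 in both of these fits. Cat, catalase, was at 12.38 in P3r2 and 12.32 in fed, against 9.29 at P3 (0.05 ± 0.46, adjusted p = 0.99). Sod1, the cytosolic superoxide dismutase, was at 11.48, 11.32, 11.31 and 11.50 against 11.07, 10.52, 11.15 and 10.97 (0.47 ± 0.14, adjusted p = 0.094), and Gpx1, glutathione peroxidase 1, at 12.73, 12.82, 12.75 and 12.84 against 12.46, 12.27, 12.57 and 12.34 (0.38 ± 0.15, adjusted p = 0.24). Neither was called, though the groups did not overlap. Hmox1, heme oxygenase 1, overlapped (0.27 ± 0.41, adjusted p = 0.89).

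Genes of the mitochondrial respiratory chain and of mitochondrial translation were higher by small amounts. In the oxidative phosphorylation list 10 of 50 measured genes were called, all higher, against 2.88% of all genes. Of the 50, 48 lay above 0, with a median of 0.47 against 0.04 over all genes. Ndufv2, a subunit of complex I (0.83 ± 0.13, adjusted p = 0.0037), stayed called in every fit that left out 1 of the 8 arrays. The other 9, among them Atp5po of the ATP synthase (0.99 ± 0.24, adjusted p = 0.041), Uqcrc1 of complex III (0.65 ± 0.15, adjusted p = 0.032) and Sdhb of complex II (0.41 ± 0.09, adjusted p = 0.029), did not. Without fed 2 only 1 of the 50 was called, and without fed 2, P2 4 and P3 3 together 7 were. The median was 0.37 in both of these fits. After quantile normalization 6 were called and with the covariate 7. All 55 mitochondrial ribosomal proteins, a family drawn up by name after values were seen, lay above 0, with a median of 0.55. Of them 17 were called, against 2.88% of all genes (4 after quantile normalization, 9 with the covariate and 7 without fed 2). Without fed 2, P2 4 and P3 3 together 12 were called. Mrpl48 (1.15 ± 0.17, adjusted p = 0.0021) and Mrpl12 (1.18 ± 0.21, adjusted p = 0.0058) were among them. Among the 3304 brightest genes the median difference was 0.22, and the part of array spread in these rises was not tested.

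The pyruvate dehydrogenase complex and the citric acid cycle gave steadier calls. Of 22 members 6 rose and 1, Pdk4, fell, against 2.88% and 0.651% of all genes. In each fit that left out 1 of the 8 arrays 5 or 6 rose. Pdhx (0.79 ± 0.12, adjusted p = 0.0028) and Pdhb (0.66 ± 0.11, adjusted p = 0.0051) are subunits of the complex that turns pyruvate into acetyl-CoA. Pdk1, a kinase that shuts the complex, rose by 0.95 ± 0.12 (adjusted p = 0.00056), from a mean of 8.47 in fed to 9.42, with 7.10 at P3, while its relative Pdk4 was lower. Mdh2 and Suclg1 (0.52 ± 0.09, adjusted p = 0.0074), enzymes of the cycle, were called in all 8 fits, and Idh3b (0.43 ± 0.10, adjusted p = 0.030) was not in 6 of them (up to 0.094 without P3r2 2). Coq10b, which binds coenzyme Q, rose by 2.14 ± 0.34 (adjusted p = 0.0036) and was at 10.21 at P3, 8.23 in P3r2 and 6.09 in fed.

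**Figure D5:**
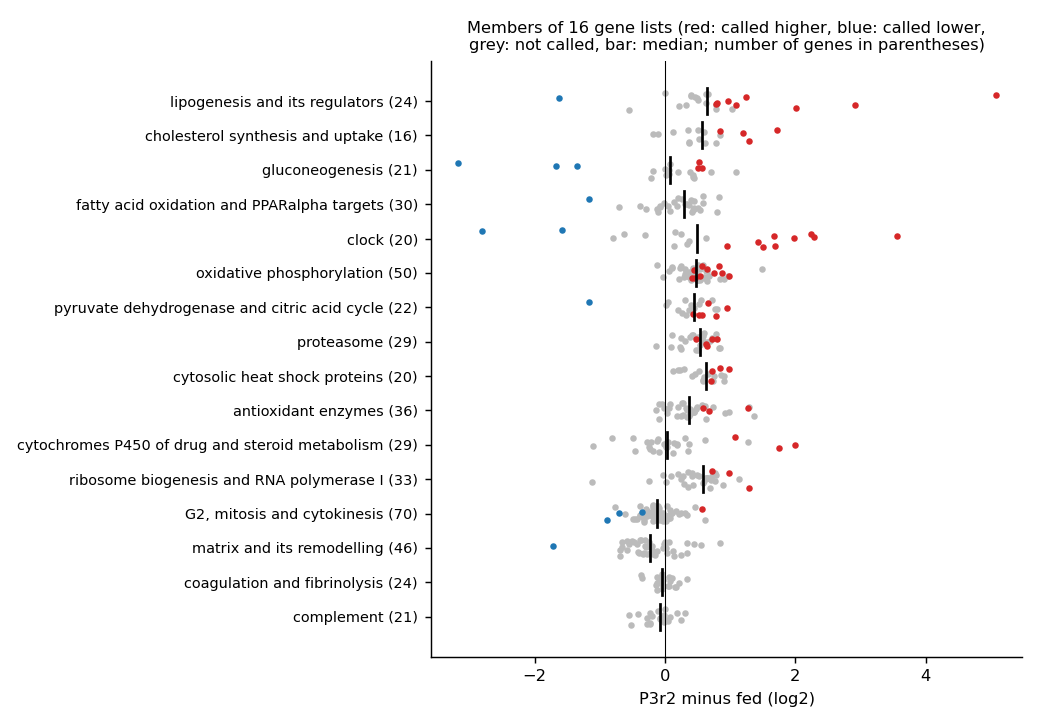
Difference between P3r2 and fed (horizontal axis, log2 units) for the measured members of 16 gene lists, 1 point per gene, with called genes in red (higher) or blue (lower) and a bar at the median of the list. The clock and lipogenesis lists hold the widest differences, and no member of the coagulation and complement lists was called.

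Genes of protein turnover and folding also counted small rises. Of 29 proteasome subunits 5 were called, all higher, against 2.88% of all genes (1 after quantile normalization, 2 with the covariate, and 1 without fed 2). Without fed 2, P2 4 and P3 3 together 7 subunits were called. Their median was 0.54 against 0.04 over all genes and 0.22 among the 3304 brightest genes. Psmc5, an ATPase of the regulatory particle, kept its call in all 8 fits (0.80 ± 0.15, adjusted p = 0.011). All 20 cytosolic heat shock proteins lay above 0 and 4 were called, against 2.88% of all genes. Among them were Stip1, which links HSP70 with HSP90 (0.99 ± 0.25, adjusted p = 0.044), and Dnajb1, an HSP40 (0.70 ± 0.15, adjusted p = 0.022). With P3r2 3 left out these 2 reached adjusted p = 0.14 and 0.086, and with the covariate none of the 20 was called (0, limma). In the autophagy and lysosome list 0 of 33 were called by limma, and 4 had an unadjusted p below 0.05. Over all genes these shares were 3.53% and 17.5%.

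Most lists of genes for handling amino acids and for making proteins held a few called genes. Of 21 amino acid transporters 1 was called higher and 2 lower, Slc6a6 and Slc7a8, with a median of -0.04. Asns, asparagine synthetase, a gene that responds to amino acid shortage through ATF4, was at 6.62, 6.91, 5.84 and 6.25 in P3r2 and at 4.61, 4.46, 4.65 and 4.86 in fed (1.76 ± 0.22, adjusted p = 0.00063). It stood above P3 as well, where the mean was 5.45. Nupr1, a stress-induced chromatin protein, was higher by 1.53 ± 0.32 (adjusted p = 0.019, and 0.066 without P3r2 1), but these and Eif4ebp1 were the only called ones of 24 genes of that response. Yars1, the tyrosyl-tRNA synthetase (0.75 ± 0.12, adjusted p = 0.0031), Rrs1, a ribosome assembly factor (1.29 ± 0.21, adjusted p = 0.0044), and Umps, the last enzyme of uridine monophosphate synthesis (0.86 ± 0.13, adjusted p = 0.0026), were called in all 8 fits that left out 1 array. Ribosome biogenesis counted 3 of 33 higher, translation factors 3 of 25, tRNA synthetases 3 of 13 and nucleotide synthesis 4 of 22, against 2.88% of all genes. Their medians were 0.59, 0.48, 0.38 and 0.38, against 0.04 over all genes and 0.22 among the 3304 brightest genes. After quantile normalization 1, 0, 2 and 1 of them were called higher. Of 22 cytosolic ribosomal proteins 0 were called (limma), and 5 had an unadjusted p below 0.05, against 3.53% and 17.5% of all genes.

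Arg1, the arginase of the urea cycle, rose by 0.67 ± 0.11 (adjusted p = 0.0054), with means of 10.62 in fed, 12.23 at P3 and 11.29 in P3r2. Kynu, which breaks down kynurenine of the tryptophan pathway, was lower (-1.41 ± 0.28, adjusted p = 0.012), and Sdsl, which deaminates serine, was higher (0.79 ± 0.12, adjusted p = 0.0023). Tat, tyrosine aminotransferase, a gene of the glucocorticoid response, was at the fed level (0.06 ± 0.16, adjusted p = 0.95). Of the 48 genes of amino acid breakdown, 2 rose and 1 fell.

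Single growth and cell cycle genes fell, while the lists of cell cycle genes leaned either way. Cdkn1a, the cell cycle inhibitor p21, was at 4.68, 5.95, 6.03 and 6.08 in P3r2 and at 8.41, 7.22, 8.45 and 7.75 in fed (-2.27 ± 0.41, adjusted p = 0.0080), against a P3 mean of 10.36. Bmf, a protein of the BCL2 family that promotes cell death, was lower by a uniform amount (-1.45 ± 0.17, adjusted p = 0.00038), and Cdc25b, a phosphatase that starts mitosis, was lower too (-0.71 ± 0.13, adjusted p = 0.0072). Of 70 genes of G2 and mitosis, 1 rose and 3 fell, with 49 below 0 and a median of -0.12. Of 43 genes of G1, DNA replication and S phase, 1 rose and 1 fell, with 32 above 0 and a median of 0.12. Over all genes 2.88% were called higher and 0.651% lower. Ccnd1, cyclin D1, was at 7.40, 8.15, 7.83 and 7.46 against 8.83, 8.22, 8.41 and 8.59 (-0.80 ± 0.26), which was not called (adjusted p = 0.12), nor were Mki67 (-0.44 ± 0.14, adjusted p = 0.13) and Top2a (-0.77 ± 0.23, adjusted p = 0.091), markers of dividing cells. Bcl6, a repressor that growth hormone lowers in liver, was called at the threshold (-2.15 ± 0.55, adjusted p = 0.049), and 7 of the 8 fits lost it (up to 0.14 without P3r2 2).

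Several genes far off the fed level at P3 were not called against fed in P3r2. Gadd45b, a stress sensor, had means of 5.42 in fed, 11.54 at P3 and 5.27 in P3r2 (-0.15 ± 0.17, adjusted p = 0.84), and Fst, the activin inhibitor follistatin, had 3.81, 8.52 and 3.71 (-0.10 ± 0.18, adjusted p = 0.92). Ghr, the growth hormone receptor, went from 7.53 at P3 to 10.87, with 10.80 in fed (0.07 ± 0.25, adjusted p = 0.96), and Myc from 8.56 to 5.34, with 4.99 in fed (0.36 ± 0.32, adjusted p = 0.75). Igf1, the growth factor made by liver, was at 11.56 against 11.94 in fed (-0.38 ± 0.42, adjusted p = 0.81). Car3, carbonic anhydrase III, had a mean of 4.45 at P3 and was at 11.84, 11.96, 11.54 and 11.81 in P3r2 against 12.39, 12.11, 12.51 and 12.55 in fed, below in 4 of 4 animals but not called (-0.60 ± 0.19, adjusted p = 0.12). Plin2, a lipid droplet protein, rose back from 6.93 at P3 to 10.12, where fed had 10.36 (-0.24 ± 0.22, adjusted p = 0.76). A p that misses the threshold does not show that these levels are equal.

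Lists of blood proteins made by the liver held no called gene. By limma 0 genes were called of 24 of coagulation, 21 of complement, 27 plasma carriers and protease inhibitors and 26 acute phase genes. Over all genes 3.53% were called, and in a list of this size 0 is near that share. An unadjusted p below 0.05 was reached by 1, 0, 1 and 2 of them, against 17.5% of all genes. Alb, albumin, was at 13.32 to 13.41 in P3r2 and at 13.15 to 13.37 in fed (0.07 ± 0.08, adjusted p = 0.85). With the covariate 1 complement gene and 1 acute phase gene were called lower. Matrix genes counted 1 of 46 lower, Lox, which crosslinks collagen (-1.71 ± 0.42, adjusted p = 0.040; up to 0.11 without P3r2 3), with 34 of the 46 below 0, and 7 of them were called lower after quantile normalization.

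Defining markers of hepatocytes were present and level, with 0 of 10 called by limma and 1 with an unadjusted p below 0.05. Over all genes these shares were 3.53% and 17.5%. Of the other 17 marker lists, called genes lay in 3. Pdgfrb, a receptor of stellate cells, was lower (-1.33 ± 0.23, adjusted p = 0.0053), alone among 13 stellate and fibroblast markers (3 lower after quantile normalization). In periportal hepatocytes Arg1 and Hsd17b13, a lipid droplet enzyme (0.93 ± 0.14, adjusted p = 0.0023), were higher and Pck1 was lower among 10 genes. Fabp2, the intestinal fatty acid binding protein, was at 6.08, 5.98, 5.50 and 6.15 in P3r2 and at 3.26, 2.92, 2.98 and 3.54 in fed (2.75 ± 0.19, 6.73-fold, adjusted p = 6.1e-06). The other 3 intestinal markers measured, Tff3 (-0.23), Lgals4 (-0.12) and Alpi (-0.09), were not called.

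Globin mRNA was lower in the re-fed livers. Hbb-b1, a beta globin, was at 6.60, 7.45, 7.30 and 6.22 in P3r2 and at 9.61, 8.94, 10.01 and 9.53 in fed (-2.63 ± 0.49, adjusted p = 0.0095), and Hba-a3, an alpha globin, was lower by a like amount (-2.35 ± 0.48, adjusted p = 0.016; lost in 2 of the 8 fits, up to 0.059 without P3r2 3). The means at P2 and P3 were 8.78 and 7.45 for Hbb-b1 and 8.28 and 7.42 for Hba-a3, so that the order ran from fed down to P3r2. These genes have near-identical copies whose signals the array may not separate. The 4 measured erythroid markers, Epb42 (-0.29), Klf1 (-0.09), Epor (0.11) and Slc4a1 (0.26), were not called, and their summed signal on the linear scale was 120 to 165 in fed and 132 to 164 in P3r2. The part of blood left in the tissue was not tested.

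Among the remaining genes of large or uniform change were several of signalling and coenzyme metabolism. Map2k6 (2.13 ± 0.29, adjusted p = 0.0012) and Map2k3 (1.12 ± 0.12, adjusted p = 0.00024), related kinases that activate p38, both rose, and Map2k3 was at 7.19 to 7.25 in P3r2 and 6.01 to 6.25 in fed. Nmrk1, a nicotinamide riboside kinase that makes NAD, was at 7.47, 7.54, 7.42 and 7.47 against 5.44, 4.54, 5.72 and 5.97 (2.06 ± 0.28, adjusted p = 0.0012), with a P3 mean of 3.90. Sgk2, a kinase of the SGK family, rose by 1.74 ± 0.21 (adjusted p = 0.00039) from a fed mean of 6.86, with 4.20 at P3 and 8.60 in P3r2. Gcnt2, a glycosyltransferase of the I antigen, rose by 2.20 ± 0.27 (adjusted p = 0.00056), and Rhbdd2, a rhomboid family protein, by 1.56 ± 0.17 (adjusted p = 0.00018). Zfp354a, a zinc finger protein, rose by 2.05 ± 0.44 (adjusted p = 0.020), a call lost in 4 of the 8 fits (up to 0.070 without P3r2 2).

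On the other side, Rnf125, a ubiquitin ligase, was at 8.87, 8.93, 8.88 and 8.37 in P3r2 and at 10.68, 10.27, 10.84 and 10.69 in fed (-1.86 ± 0.18, adjusted p = 5.8e-05), and at 11.34 at P3. St8sia1, the sialyltransferase that makes ganglioside GD3 (-2.09 ± 0.32, adjusted p = 0.0024), and Acp3, an acid phosphatase (-1.90 ± 0.32, adjusted p = 0.0049), were lower in P3r2 and had low means in both fasted groups as well, 4.82 and 4.92 for St8sia1 against 6.65 in fed. Stac3, a protein known from muscle calcium channels, was at 7.44 in P3r2, between 4.02 at P3 and 9.65 in fed (-2.21 ± 0.48, adjusted p = 0.021; lost in 5 of the 8 fits, up to 0.071 without P3r2 1). Of the 467 called genes 129 stood on one of the lists and 338 on none.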

How the data were processed

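RNA of 16 rat livers, 4 per group, was measured on exon arrays, with 1 array for each animal. The deposited values are log2 signals per transcript cluster, made with Affymetrix Expression Console 1.1 and GCOS 1.4, per the submitters' processing notes. How background was corrected and probes were summarized, and on which genome build, is not given in the sources used here, and the log2 scale was taken from the deposited range, 0.84 to 13.6. Arrays can compress very dim and very bright signals, so fold changes there may be understated. No further scaling was applied, and every column belongs to an array of the series.

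Of 19418 rows, 533 with identifiers below the annotated range were left out. Of the 18885 tested, 13327 carry 1 gene symbol, 620 several and 4938 none. A gene with several rows (102 of 13215) was represented by the brightest. Symbols come from the array's annotation and RefSeq (GRCr8).

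A linear model with 1 mean per group was fitted to all 16 arrays with limma 3.58.1 (R 4.3.3), and the contrast P3r2 minus fed was tested with eBayes, two-sided, with Benjamini-Hochberg adjustment over the 18885 rows and a threshold of 0.05. No array was left out of this fit and no value was imputed. On simulated data with 50 changed genes per fold, 30% of genes changed 1.5-fold, 80% changed 2-fold, 96% changed 3-fold and 100% changed 4-fold were called. Of the unchanged rows 10 were called. The simulated noise was equal on all arrays, unlike the real arrays, so these shares need not hold for the real data. Alternatives were quantile normalization, median centring, trend and robust moderation, array weights, the 2 groups alone, 3 arrays of narrow spread left out (fed 2, P2 4, P3 3), array spread as a covariate, brighter rows only, unnamed rows included, all rows of a gene averaged, a threshold of 0.01, a block for the replicate number, and each of the 8 arrays left out in turn.

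The comparison, the 48 gene lists and the 18 marker lists were chosen with earlier results of these data known, and 1331 of the 1833 genes on them have a row of their own. The text names the 15 largest rises and falls without overlap, some of the called members of the lists, a set of key genes, and up to 5 more genes each way with the smallest adjusted p. Other called members, and some lists that hold called genes, are not described. Genes in the other observations and the mitochondrial ribosomal family were chosen after their values were seen. Promoter windows came from RefSeq (GRCr8) and were searched on both strands with Python 3.11.15. Figures were drawn with matplotlib 3.10.9.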

Additional observations from a re-analysis of the deposited data

Results flagged for a closer look

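In 28 of 332 groups of 4 arrays, for the 166 genes named, 1 array stood apart from the other 3 by Dixon's 95% limit (8.4%, where chance gives about 1 in 20), and the array was fed 2 in 10 of them.

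In fed 2, Alb was at 13.15 (others 13.33 to 13.37), Bcl6 at 5.05, Cyp2c11 at 11.88, Dgat1 at 6.27, Idh3b at 9.83 and Mrpl48 at 4.85. In the same array Odc1 was at 7.61, Psmc5 at 6.39, Stip1 at 7.5 (others 8.78 to 8.95) and Uqcrc1 at 8.41. All 10 values were below the other 3 fed arrays.

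Of the other fed arrays, fed 1 was high for Cyp1a1 (4.13) and low for Mki67 (3.04), Ppard (7.43) and St8sia1 (5.59, others 6.85 to 7.09). Epb42 (3.48) and Slc2a5 (7.49, others 6.28 to 6.38) were high in fed 3. Rhbdd2 (6.35) and Scd (11.65, others 12.31 to 12.36) were low in fed 4.

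Among the re-fed arrays, P3r2 1 was low for Cdkn1a (4.68, others 5.95 to 6.08) and Suclg1 (10.29) and high for Slc2a5 (8.74). P3r2 2 was low for Cldn1 (6.1), Clpx (8.56) and Pnrc1 (7.84) and high for Hao2 (10.35) and Bhlhe41 (3.05). Me1 was low in P3r2 3 (9.85, others 10.73 to 10.82) and Rnf125 was low in P3r2 4 (8.37).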

How the results depend on the processing

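Against 381 genes higher and 86 lower, array weights gave 1034 and 238, quantile normalization 190 and 162, the array spread as a covariate 237 and 244, and a threshold of 0.01 gave 114 and 39. Without the 3 arrays of narrow spread 159 genes were lower and 385 higher. Of the genes that differed by at least 2-fold, 96 higher and 56 lower, quantile normalization left 55 and 72, the covariate 58 and 81, and the threshold of 0.01 left 53 and 33. With each of the 8 arrays left out in turn, 157 to 335 genes were higher and 50 to 94 lower, and by at least 2-fold 54 to 104 and 40 to 59. The cause of these shifts was not tested, except that leaving out an array leaves fewer arrays and that a stricter threshold calls fewer genes. Under median centring, trend and robust moderation, the 2 groups alone, brighter rows only, unnamed rows included and the mean of all rows, the 4 counts stayed within 1.5 times. For the 166 genes named, 2964 of 3313 comparisons with an alternative kept their side of the threshold, 325 lost the call and 24 gained it. Of those that kept their side, 33 changed sign where neither fit called the gene.

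The replicate numbers are shared by the groups but do not pair the animals: the deviations of same-numbered arrays correlated at -0.002, -0.089, 0.001 and -0.401. With the replicate block 312 genes were higher and 68 lower, 89 and 51 by at least 2-fold. Of the genes named, 11 lost the call under the block and 1 gained it. Signals near background limit what dim genes can show, and 4 arrays per group limit the rest.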

Other observations

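Genes on none of the lists, chosen here after their values were seen from those that differed by at least 2-fold and were called in all 8 fits that left out 1 array, fell into small sets. Polyamine synthesis had 2 of them, Odc1, ornithine decarboxylase (1.02 ± 0.18, adjusted p = 0.0074 by limma), and Azin1, which shields that enzyme from its antizyme (1.07 ± 0.14, adjusted p = 0.00065). Odc1 had means of 8.13 in fed, 9.63 at P3 and 9.15 in P3r2, and Azin1 8.28, 8.20 and 9.34. Tomm40, the pore of the mitochondrial outer membrane, rose by 1.12 ± 0.18 (adjusted p = 0.0037), and Chek1, a checkpoint kinase, by 1.22 ± 0.20 (adjusted p = 0.0037). Tlcd1, a membrane lipid protein, rose by 1.41 ± 0.21 (adjusted p = 0.0023) and Ces4a, a carboxylesterase, by 1.15 ± 0.16 (adjusted p = 0.0013), and the latter had been at 4.34 at P3 against 6.44 in fed.

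Among the falls, Chka, choline kinase, which begins the synthesis of phosphatidylcholine, was at -1.46 ± 0.19 (adjusted p = 0.00085) and Cldn1, a claudin of tight junctions, at -1.63 ± 0.32 (adjusted p = 0.011). Nrep, a neuronal regeneration related protein, had means of 8.83 in fed, 5.28 at P3 and 7.07 in P3r2 (-1.76 ± 0.29, adjusted p = 0.0045). Clpx, the unfoldase of the mitochondrial matrix protease, was lower (-1.34 ± 0.17, adjusted p = 0.00076), from 10.10 in fed to 8.76. Slc28a2, a nucleoside transporter, was lower too (-1.34 ± 0.21, adjusted p = 0.0034). Ltc4s, leukotriene C4 synthase, was at -1.53 ± 0.26 (adjusted p = 0.0051) and Adora2b, an adenosine receptor, at -1.44 ± 0.21 (adjusted p = 0.0017). Ltc4s had means of 5.6 at P2, 5.37 at P3 and 5.52 in P3r2. Pnrc1, a coregulator of nuclear receptors (-1.37 ± 0.21, adjusted p = 0.0031), and Tmem140, a membrane protein (-1.35 ± 0.18, adjusted p = 0.00092), were at 10.73 and 11.74 at P3, above the fed means of 9.50 and 10.61, and fell below them in P3r2.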
